A study of Mus musculus with 12 samples.

Results

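Homeostatic microglia genes are the genes by which resting microglia, the resident macrophages of the brain, are told apart from other myeloid cells. The 9 genes P2ry12, P2ry13, Tmem119, Cx3cr1, Fcrls, Siglech, Sall1, Gpr34 and Olfml3 were taken by name from the 55862 genes of the deposited table. All 9 were present, each on 1 row, and their levels were followed across the 4 groups of the study.

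RNA was sequenced from 12 samples, 3 per group. No sort is described for any group. ASTs were cortical astrocytes isolated from C57BL/6 mouse pups after the meninges had been removed, kept as a monolayer with serum (0 days of incubation). A-iSCs were the same kind of culture after 5 days in suspension on agarose, where the cells form spheres. The P56-NPC samples were dissociated from the subependymal zone of adult C57BL/6J mice (postnatal day 56), and the P0-NPC samples from the hippocampus of newborn C57BL/6J mice (postnatal day 0). Loosely attached cells were removed from the AST cultures before passage. No engineered allele or transgene is given for any group, and the labels do not say whether the 3 samples of a group came from separate animals or cultures. The methods speak of independent experiments for the work in general but do not tie these samples to them, so p-values measure the spread between these samples, which may be technical in part. A-iSCs and ASTs differ in their incubation. The NPC groups differ from each other in age and region together, and from ASTs and A-iSCs also in how they were prepared, and the parts of these cannot be told apart. No time in culture before RNA extraction is given for the NPC groups in the sources used here.

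Microglia arise from yolk sac progenitors, seed the brain before birth and mature there over the first weeks of life. Signalling through Csf1r keeps them alive, and TGF-beta from the brain environment maintains the homeostatic genes, many of which fall when microglia are placed in culture or become activated. Microglia are a well-known companion of primary astrocyte cultures, in which they grow loosely attached on the astrocyte layer.

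The labelled cell types were compared with marker genes. Each sample held 17077780 to 24452419 recovered fragments. FPKM is the fragments counted on a gene, corrected for its length and for library size. The summed FPKM of 7 astrocyte markers was 140 to 159 in ASTs and 1199 to 2454 in A-iSCs. In P56-NPCs it was 2368 to 2589, the highest group mean, and in P0-NPCs 237 to 302. The 4 oligodendrocyte markers summed to 7851 to 8963 in P56-NPCs. The 5 neuron markers summed to 657 to 808 FPKM in P0-NPCs and at most 219 elsewhere. The 5 neural progenitor markers were not highest in the NPC groups. They summed to 319 to 344 FPKM in ASTs, 278 to 338 in A-iSCs, 105 to 131 in P56-NPCs and 212 to 227 in P0-NPCs. Fibroblast markers summed to 147 to 198 FPKM in ASTs and 4.67 to 5.73 in A-iSCs, and to 4.33 to 10.5 in P56-NPCs and 109 to 122 in P0-NPCs. Pericyte markers summed to 53.9 to 62.3 FPKM in P0-NPCs and endothelial markers to 66.8 to 67.4, beside at most 12.4 and 3.59 in all other samples. The part of these cells in the differences between groups was not tested. The 8 shared myeloid genes (Csf1r, Ptprc, Itgam, Spi1, Tyrobp, Fcer1g, Laptm5 and Aif1), which microglia share with other macrophages, summed to 89.4 to 129 FPKM in ASTs, 774 to 1345 in A-iSCs, 208 to 213 in P56-NPCs and 56.2 to 74.3 in P0-NPCs. Markers of monocytes and granulocytes summed to at most 0.759 FPKM in any AST or A-iSC sample, with S100a9 and Ly6g at 0 in all 6 of them, and to between 6.27 and 16.2 FPKM in the NPC samples.

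Promoter sequences (RefSeq, GRCm38.p6) were held for 7 of the 9 genes and not for Tmem119 and Gpr34. They were searched on both strands for GAGGAA and GGAAGT, which hold the GGAA core bound by PU.1 (the product of Spi1) and other ETS factors. These letters were chosen after the sequences had been seen. The promoters of Siglech, Fcrls and P2ry12 are shown because their levels relative to myeloid genes, given further on, ran from the widest gap between A-iSCs and P56-NPCs (Siglech) through P2ry12 to overlap (Fcrls). Each runs from 250 bases before to 50 bases after the annotated start, 5′ to 3′ on the strand of the gene, with matches in capitals (TTCCTC and ACTTCC are the same motifs on the opposite strand).
Siglech, chr7:55767934-55768233, plus strand: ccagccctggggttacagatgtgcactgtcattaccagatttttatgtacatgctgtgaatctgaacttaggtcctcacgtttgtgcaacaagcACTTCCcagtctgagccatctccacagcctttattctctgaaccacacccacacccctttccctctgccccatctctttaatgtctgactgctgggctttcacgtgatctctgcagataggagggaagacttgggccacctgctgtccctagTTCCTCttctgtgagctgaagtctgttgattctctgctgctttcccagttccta
Fcrls, chr3:87263475-87263774, minus strand: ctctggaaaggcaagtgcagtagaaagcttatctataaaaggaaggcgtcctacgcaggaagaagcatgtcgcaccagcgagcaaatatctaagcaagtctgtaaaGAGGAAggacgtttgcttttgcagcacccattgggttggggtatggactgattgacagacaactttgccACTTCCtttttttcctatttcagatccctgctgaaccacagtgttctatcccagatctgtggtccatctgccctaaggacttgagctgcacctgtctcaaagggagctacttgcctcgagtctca
P2ry12, chr3:59262936-59263235, minus strand: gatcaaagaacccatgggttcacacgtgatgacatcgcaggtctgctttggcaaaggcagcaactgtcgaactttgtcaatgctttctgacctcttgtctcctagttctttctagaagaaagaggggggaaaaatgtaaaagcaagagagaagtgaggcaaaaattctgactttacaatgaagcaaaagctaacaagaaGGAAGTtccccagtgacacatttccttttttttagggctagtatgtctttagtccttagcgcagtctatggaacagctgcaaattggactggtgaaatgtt

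GAGGAA was found in 3 of the 7 genes (Fcrls, P2ry13 and Siglech) and GGAAGT in 4 (Fcrls, P2ry12, Sall1 and Siglech), so that 5 held either. Genes with several entries were pooled, and of the 3 entries of Sall1 only 1 held a match. Counted by entry, 3 of 9 held GAGGAA, 4 held GGAAGT and 5 held either. Among 32851 promoters of the same length, 28.3% held GAGGAA, 23.8% held GGAAGT and 43.4% held either. A match is a run of letters and not a binding site.

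The level of each gene in each sample is given first, in FPKM. P2ry12 encodes a receptor for ADP that steers microglial processes toward damaged cells (ENSMUSG00000036353, chr3:59216272-59262871). It stood at 0.726, 0.523 and 0.761 FPKM in ASTs, at 7.19, 5.48 and 9.23 in A-iSCs, at 60.3, 60.0 and 60.3 in P56-NPCs, and at 3.33, 5.44 and 4.49 in P0-NPCs. The P56-NPC samples lay far above all others, the highest P0-NPC sample lay just below the lowest A-iSC sample, and the AST samples were lowest, with no overlap between groups. P2ry13, its neighbour on chromosome 3 and a second ADP receptor (ENSMUSG00000036362, chr3:59207892-59210882), stood at 0.684, 0.917 and 0.511 FPKM in ASTs, 8.28, 6.65 and 9.09 in A-iSCs, 18.8, 22.9 and 17.3 in P56-NPCs, and 0.467, 1.78 and 0.819 in P0-NPCs. Its A-iSC samples again lay below the P56-NPC samples, but its P0-NPC samples overlapped with the ASTs.

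Tmem119 encodes a membrane protein that is widely used as a microglial marker (ENSMUSG00000054675, chr5:113793729-113800516). Its FPKM was 3.07, 3.75 and 3.86 in ASTs, 18.4, 15.3 and 16.6 in A-iSCs, 54.2, 49.5 and 52.9 in P56-NPCs, and 2.98, 3.43 and 3.12 in P0-NPCs. P56-NPCs were again highest and A-iSCs next, and ASTs and P0-NPCs overlapped. Gpr34, a receptor for lysophosphatidylserine (ENSMUSG00000040229, chrX:13632089-13640858), stood at 1.37, 0.920 and 1.57 FPKM in ASTs, 12.5, 12 and 22.5 in A-iSCs, 28.6, 29.3 and 27.8 in P56-NPCs, and 1.80, 2.79 and 1.95 in P0-NPCs. The A-iSC sample numbered 3 was well above the other A-iSC samples, and the 4 groups did not overlap.

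Cx3cr1 encodes the receptor for fractalkine, a chemokine presented by neurons (ENSMUSG00000052336, chr9:119901616-120069879). It stood at 6.54, 7.89 and 7.09 FPKM in ASTs, 68.8, 57.6 and 57.0 in A-iSCs, 41.0, 44.2 and 37.0 in P56-NPCs, and 3.55, 5.67 and 3.82 in P0-NPCs. Here the A-iSC samples were above all P56-NPC samples. Fcrls, an Fc receptor-like scavenger receptor (ENSMUSG00000015852, chr3:87250758-87263738), stood at 23.6, 22.6 and 26.7 FPKM in ASTs, 270.4, 229 and 295 in A-iSCs, 53.6, 52.9 and 49.3 in P56-NPCs, and 13.7, 16.3 and 17.4 in P0-NPCs. It had the highest FPKM of the 9 genes in ASTs, A-iSCs and P0-NPCs, whereas in P56-NPCs P2ry12 was highest and Tmem119 and Fcrls were next. Olfml3, a secreted glycoprotein (ENSMUSG00000027848, chr3:103722222-103738001), stood at 3.84, 3.78 and 4.47 FPKM in ASTs, 32.1, 31.2 and 25.8 in A-iSCs, 14.2, 14.1 and 14.5 in P56-NPCs, and 3.19, 3.06 and 3.21 in P0-NPCs, in the same order of groups as Fcrls and without overlap.

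Siglech encodes a sialic acid-binding lectin that signals through Tyrobp and is also made by plasmacytoid dendritic cells (ENSMUSG00000051504, chr7:55768178-55778925). In ASTs 1, 0 and 0 fragments were counted on it, and in A-iSCs 5, 0 and 4, which came to 0.0733, 0 and 0.0441 FPKM. P56-NPCs held 18.6, 19.2 and 17.6 FPKM from 1091, 1043 and 980 fragments, and P0-NPCs held 1.63, 2.03 and 2.0 FPKM from 126, 200 and 186 fragments. ASTs and A-iSCs were at or near the level that a count of 0 allows, which is 0.0440 to 0.0529 FPKM for 3 fragments in the least deep library of each, whereas all 6 NPC samples were clearly above it. Sall1, a transcription factor that sets microglial identity and is also made by neural progenitors (ENSMUSG00000031665, chr8:89027235-89044162), varied least. It stood at 9.88, 7.86 and 11.1 FPKM in ASTs, 11.9, 11.9 and 16.6 in A-iSCs, 13.7, 15.8 and 12.4 in P56-NPCs, and 4.72, 6.34 and 4.88 in P0-NPCs, and A-iSCs and P56-NPCs overlapped.

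**Figure D1:**
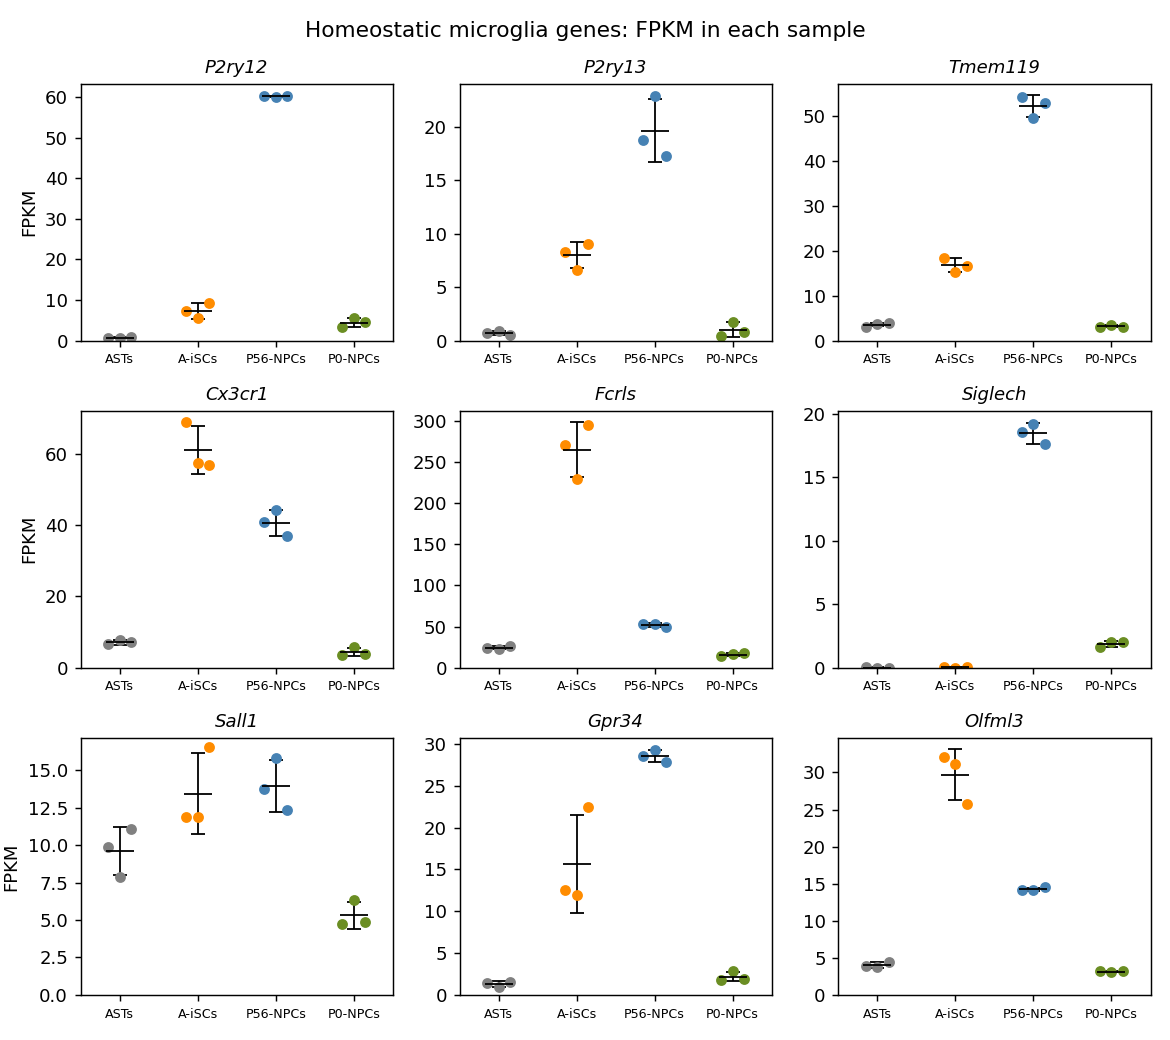
FPKM of the 9 genes in each of the 12 samples, with 1 panel per gene, a linear axis from 0, a point per sample, and a bar with whiskers for the group mean and SD (n = 3). P2ry12, P2ry13, Tmem119, Gpr34 and Siglech were highest in all 3 P56-NPC samples, Cx3cr1, Fcrls and Olfml3 in all 3 A-iSC samples, and Siglech was at most 0.0733 FPKM in any AST or A-iSC sample.

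The first comparison asks what 5 days of sphere culture did to these genes. A total of 7 genes were called, each of them at a higher level in the spheres: P2ry12, P2ry13, Tmem119, Cx3cr1, Fcrls, Gpr34 and Olfml3. Group means differed by 4.71 times for Tmem119 to 12.2 times for Gpr34. Of all 14087 genes tested, 54.8% were called and 25.2% were called higher in A-iSCs. Higher genes made up 46.0% of calls, and 60.4% when values were scaled by library size alone.

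Fold changes were taken on log2(FPKM + 1) with limma, with Benjamini-Hochberg adjustment over all genes tested, and this understates the change of genes near 1 FPKM. Fcrls rose by 3.39 (SE 0.14, adjusted p = 5.56e-06), from 24.3 ± 2.12 to 265 ± 33.1 FPKM (SD, n = 3). Cx3cr1 rose by 2.92 (SE 0.13, adjusted p = 5.9e-06) and Gpr34 by 2.82 (SE 0.24, adjusted p = 8.1e-05). Olfml3, P2ry13, P2ry12 and Tmem119 rose by 2.61, 2.40, 2.29 and 1.96, with adjusted p between 8.03e-06 and 4.78e-05. P2ry12 and P2ry13 were tested only because A-iSCs passed the filter of 1 FPKM, so their calls add nothing to the count. Of the 6 genes that passed in both groups, 5 were called higher. Siglech passed in neither group and was not tested. Sall1 had 13.4 ± 2.71 FPKM in A-iSCs and 9.61 ± 1.64 in ASTs, a log2 difference of 0.44 (SE 0.18, adjusted p = 0.0677), with no overlap between the groups. Such a lack of overlap, with A-iSCs above, held for 28.8% of the genes tested. Sall1 was called with scaling by library size alone (0.64, adjusted p = 0.0219) and with upper-quartile scaling (0.62, adjusted p = 0.0150).

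Genes of the other lists that passed the filter in 1 group only likewise entered through the group where they were higher. Each list is therefore also counted over its genes that passed in both. The shared myeloid genes rose as well, with 8 of 8 called higher (7 of 7 in both) and a median log2 change of 3.15, beside 2.71 for the 6 homeostatic genes that passed the filter in both groups and -0.06 for all genes tested. Their largest change was that of Aif1 (3.35), a cytoskeletal protein of macrophages, and their smallest that of Ptprc (1.82), the leukocyte phosphatase CD45, which passed only in A-iSCs. In bulk RNA, fewer cells of a type and less RNA per cell cannot be told apart. Of the other microglia-enriched genes, 15 of 18 tested were higher (9 of 12 that passed in both groups) and 0 lower, from Mef2c (0.94), a transcription factor, to C1qb (3.75), a subunit of complement C1q. Bin1 (-0.36), Runx1 (-0.14) and Adgrg1 (0.20) were not called. Genes of activated microglia were higher for 9 of 11 (8 of 10 that passed in both groups) and lower for 1. Apoe, a lipid carrier also made by astrocytes, had the largest change of this list (4.21), and Axl, a receptor tyrosine kinase also made by astrocytes, was the lower gene (-1.05). Border macrophage genes, which mark the macrophages of meninges and vessels, were higher for 4 of 5 tested (3 of 3 that passed in both groups), up to Ms4a7 (3.11). Cbr2 (-1.10) was lower but passed only in ASTs. The 9 border genes summed to 10.9 to 14.2 FPKM in ASTs and 81.5 to 110 in A-iSCs, and the part that any of these cell types had in the rise of the homeostatic genes was not tested.

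Ligands and partners of the 9 genes went both ways, with 6 of 17 tested higher in A-iSCs and 8 lower, and 4 and 6 of the 13 that passed in both groups. Nrros, which presents latent TGF-beta on myeloid cells, rose most (2.02), and Csf1, a growth factor for microglia that acts on Csf1r, fell most (-3.68), from a mean of 275 to 20.6 FPKM. Cx3cl1, the ligand of Cx3cr1, fell by 1.96 on the log2 scale, from 33.7 to 7.91 FPKM, while its receptor rose. Cx3cl1 was picked out after its values were seen.

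The second comparison sets the spheres beside the adult NPC samples. In A-iSCs, Cx3cr1, Fcrls and Olfml3 were higher than in P56-NPCs, P2ry12, P2ry13, Tmem119, Siglech and Gpr34 were lower, and Sall1 was not called. Siglech was tested only because P56-NPCs passed the filter, so its call adds nothing to the count, and of the other 8 genes 4 were lower and 3 higher. Of 15044 genes tested, 61.0% were called, 30.1% higher and 30.9% lower. Higher genes made up 49.4% of calls, and 74.5% with scaling by library size alone. Fcrls was 5.10 times as high in A-iSCs (log2 change 2.32, SE 0.12, adjusted p = 6.4e-06). Olfml3 was 2.08 times as high (1.0, SE 0.11, adjusted p = 0.000209) and Cx3cr1 1.5 times (0.57, SE 0.12, adjusted p = 0.00509). On the other side, P2ry12 was 8.24 times higher in P56-NPCs (-2.91, SE 0.17, adjusted p = 8.61e-06). Tmem119 was 3.11 times higher there (-1.58, SE 0.10, adjusted p = 1.6e-05) and P2ry13 2.46 times (-1.20, SE 0.15, adjusted p = 0.000395). Gpr34 was 1.82 times higher in P56-NPCs (-0.88, SE 0.22, adjusted p = 0.0119), and this call was lost with scaling by library size alone (-0.35, adjusted p = 0.194). Sall1 differed by -0.06 (SE 0.16, adjusted p = 0.748), and with scaling by library size alone it was higher in A-iSCs (0.46, adjusted p = 0.0297), a setting that moved the median of all genes to 0.49.

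Siglech showed the widest gap. From 3114 fragments in P56-NPCs and 9 in A-iSCs, its level was 491 times as high in P56-NPCs (95% interval 258 to 1074, exact, counting error only). Against ASTs, with 1 fragment, the ratio was 3472 (interval 623 to 137180). P0-NPCs, with 512 fragments, held 50.6 times the level of A-iSCs (interval 26.4 to 111). These ratios rest on few fragments. The ratio of P56-NPCs to A-iSCs was 789 without A-iSC sample 1 (interval 308 to 2899) and 326 without sample 2 (171 to 713), and that of P0-NPCs 81.4 and 33.6. The only fragment in ASTs was in sample 1. Without that sample the ratio of P56-NPCs to ASTs had an exact lower limit of 657, and it was 808 against a floor of 3 fragments over the group. Without AST sample 2 or 3 the ratio was 2206 (interval 396 to 87165) or 2313 (415 to 91375). Fitted changes of Siglech are not bounds, because ASTs and A-iSCs lie at the floor and the pseudocount of 1 sets their value.

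In the same comparison the homeostatic genes split, while 7 of 8 shared myeloid genes were higher in A-iSCs, from Ptprc (1.31) to Tyrobp (3.19), the adaptor that many myeloid receptors use, and Csf1r (0.18) was not called. Their median was 1.93, beside -0.47 for the 8 homeostatic genes other than Siglech and 0.03 for all genes. The other microglia-enriched genes split, with 10 of 19 higher and 6 lower, and 8 and 5 of the 16 that passed in both groups. C1qc (2.36) rose furthest above P56-NPCs, and Slc2a5, a fructose transporter found in microglia, fell furthest below (-2.58). Slc2a5 passed only in P56-NPCs and resembled Siglech in its levels, with means of 0.04 FPKM in ASTs, 0.05 in A-iSCs, 5.29 in P56-NPCs and 0.49 in P0-NPCs. Genes of activated microglia were higher in A-iSCs for 8 of 11 tested (4 of 7 that passed in both groups) and lower for 0, from Cd9 (1.44) to Spp1 (9.34), which encodes osteopontin. Border macrophage genes were higher for 4 of 5 tested, from Stab1 (2.25) to Ms4a7 (4.61), which passed only in A-iSCs. Of the 5, 2 passed the filter in both groups, and these 2 were higher. Among ligands and partners, 5 of 16 were higher and 4 lower (4 and 3 of the 14 that passed in both groups), from Tgfb1 (1.62), the ligand that maintains the homeostatic genes, to Itgb8 (-1.12), an integrin that releases it.

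**Figure D2:**
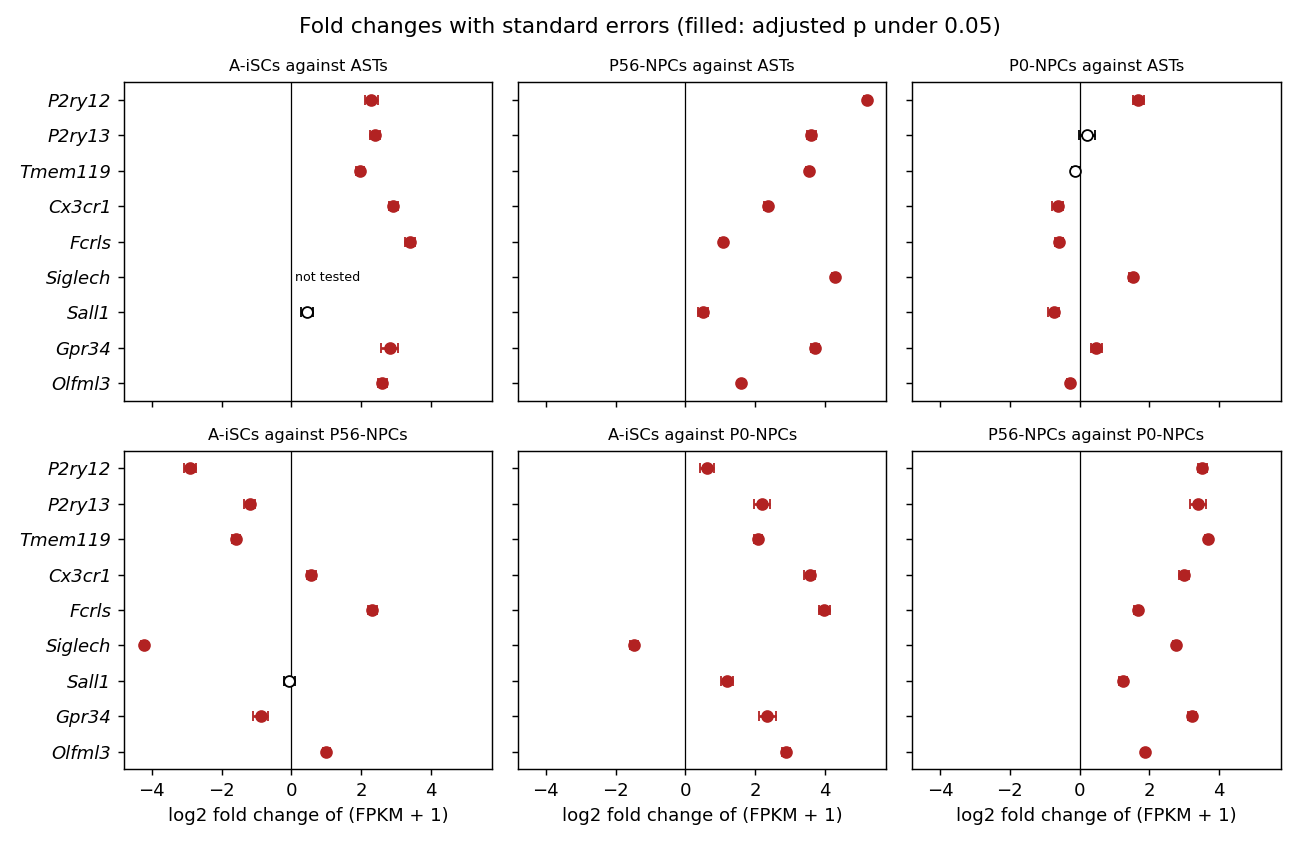
Log2 fold change of FPKM + 1 for the 9 genes (points) with SE (whiskers) in each of the 6 comparisons, filled where the adjusted p was under 0.05. All tested genes lay right of 0 for A-iSCs against ASTs, whereas against P56-NPCs the A-iSCs were higher for 3 genes and lower for 5.

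To set the homeostatic genes beside the myeloid genes of the same sample, each FPKM was divided by the geometric mean FPKM of the 8 shared myeloid genes. That mean was 5.77 ± 0.80 FPKM in ASTs, 56.9 ± 12.3 in A-iSCs, 13 ± 0.30 in P56-NPCs and 3.69 ± 0.39 in P0-NPCs (SD, n = 3). Relative to it, 8 of 9 genes were lower in every A-iSC sample than in any P56-NPC sample, and Fcrls overlapped. Because the myeloid mean itself was far higher in A-iSCs, 90.2% of all 15044 genes tested were lower in this way. The count is thus near the background. The sizes of the ratios carry the same shift, so that a gene with equal FPKM in both groups has a lower ratio in A-iSCs. Of the other myeloid lists, 10 of 19 other microglia-enriched genes, 5 of 11 genes of activated microglia and 0 of 5 border macrophage genes were lower in every A-iSC sample by the same ratio. With 3 samples against 3, an exact permutation test cannot give a p below 0.10, so these ratios are given as values.

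P2ry12 held ratios of 0.104, 0.0963 and 0.207 in A-iSCs and 4.65, 4.72 and 4.53 in P56-NPCs. The mean ratio was thus 34.1 times as high in P56-NPCs, beside 8.24 times for FPKM itself. ASTs (0.149, 0.0810 and 0.128) overlapped with A-iSCs. Tmem119 held 0.266, 0.269 and 0.373 in A-iSCs, below ASTs (0.627, 0.581 and 0.647) and P56-NPCs (4.18, 3.89 and 3.98). Gpr34 held 0.181, 0.210 and 0.504 in A-iSCs and 2.21, 2.30 and 2.09 in P56-NPCs, and its mean in A-iSCs was raised by the last of these samples. By this measure Fcrls differed little between groups, with mean ratios of 4.26 in ASTs, 4.85 in A-iSCs, 4.0 in P56-NPCs and 4.28 in P0-NPCs. Its A-iSC samples held 3.91, 4.02 and 6.61, the last of them above all other samples. Sall1 had mean ratios of 1.70 in ASTs, 0.25 in A-iSCs, 1.08 in P56-NPCs and 1.44 in P0-NPCs. Its FPKM overlapped between A-iSCs and P56-NPCs, so its lower ratio in A-iSCs (0.172, 0.209 and 0.372) mirrors the higher myeloid mean there, as it does for most genes. Cx3cr1, Olfml3 and Fcrls depended on the genes they were divided by. The mean ratios of Cx3cr1 and Olfml3 were 1.10 and 0.53 in A-iSCs and 3.14 and 1.10 in P56-NPCs, but divided by Csf1r alone they were higher in A-iSCs, by 0.40 and 0.87 on the log2 scale. Fcrls, which overlapped before, was then higher in every A-iSC sample, by 2.18 on the log2 scale. With Csf1r alone, 5 of 9 genes were lower in every A-iSC sample, beside 36.1% of all genes.

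Between A-iSCs and ASTs, 6 of the 9 ratios overlapped, and those of Tmem119, Sall1 and Olfml3 were lower in every A-iSC sample. Among all genes tested, 93.0% were lower in this way, a larger share than among the 9 genes. A-iSC sample 3 held the lowest shared myeloid mean (44.6 FPKM, beside 69.1 and 57.0) and the highest FPKM of P2ry12, P2ry13, Fcrls, Sall1 and Gpr34. Without it, 8 of 9 genes were again lower in A-iSCs than in P56-NPCs, but leaving out a sample cannot lower this count. With all samples, 90.2% of all genes tested were lower in this way.

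**Figure D3:**
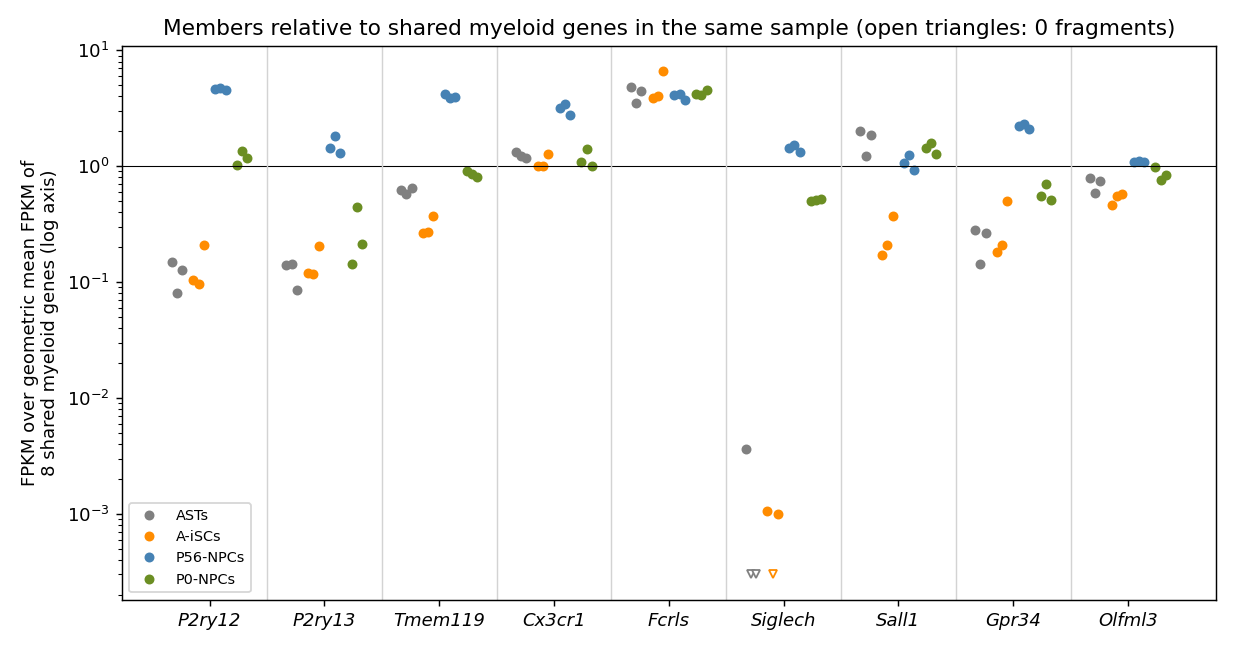
FPKM of the 9 genes divided by the geometric mean FPKM of 8 shared myeloid genes in the same sample, on a log axis, with a point per sample coloured by group and open triangles, drawn at the foot of the axis, for samples with 0 fragments. The P56-NPC samples were above all A-iSC samples for each gene but Fcrls, as they were for 90.2% of all genes tested. The Fcrls ratio lay between 3.5 and 6.61 in all 12 samples.

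The third comparison is of the NPC groups, which differ in age and in region. All 9 genes were higher in P56-NPCs than in P0-NPCs, without overlap. Of 15394 genes tested, 78.8% were called, 39.7% were called higher and 41.0% were higher without overlap. Higher genes made up 50.4% of calls, 26.7% with scaling by library size alone and 39.5% with upper-quartile scaling. Group means differed by 2.63 times for Sall1 (14 ± 1.72 against 5.31 ± 0.89 FPKM) to 19.2 times for P2ry13 (19.7 ± 2.93 against 1.02 ± 0.68). P0-NPC sample 2 was the highest for P2ry13, and without it the gene averaged 0.643 FPKM in P0-NPCs and differed by 30.6 times. Tmem119 had the largest fitted change (3.67, SE 0.07, adjusted p = 1.82e-08), followed by P2ry12 (3.52, SE 0.13, adjusted p = 3.39e-07). P2ry13, Gpr34, Cx3cr1, Siglech, Olfml3, Fcrls and Sall1 followed with 3.40, 3.23, 2.98, 2.76, 1.88, 1.66 and 1.25, with adjusted p of at most 4.32e-05.

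The shared myeloid genes were also higher in P56-NPCs, with 8 of 8 called (6 of 6 that passed in both groups), from Spi1 (0.70), the transcription factor PU.1, to Csf1r (2.52). Their median was 1.12, beside 2.98 for the homeostatic genes and 0.01 for all genes. Relative to them, 7 of the 9 genes were lower in every P0-NPC sample than in any P56-NPC sample, Fcrls overlapped, and Sall1 was higher in every P0-NPC sample. Of all genes tested, 8.89% were lower in every P0-NPC sample by this ratio. The mean ratio of P2ry13 was 0.27 in P0-NPCs and 1.52 in P56-NPCs, and that of Siglech 0.51 and 1.42. Of the other microglia-enriched genes, 15 of 17 were higher in P56-NPCs (10 of 12 that passed in both groups), up to Selplg (4.46), a ligand of selectins that passed only in P56-NPCs, and Mef2c was lower (-0.73). Border macrophage genes ran against the homeostatic genes, with 6 of 7 lower in P56-NPCs and 0 higher, from Stab1 (-0.30) to Pf4 (-3.45). Of the 7, 3 passed the filter in both groups and 2 of these were lower. The border genes summed to 6.66 to 12.2 FPKM in P56-NPCs and 46.4 to 54.6 in P0-NPCs. Genes of activated microglia were higher for 6 of 9 tested, up to Apoe (3.45), and lower for 3, down to Spp1 (-3.24), whereas of the 5 that passed in both groups 4 were higher and 1 lower. Ligands and partners were higher for 10 of 16, up to Itgb8 (2.16), and lower for 4, down to Lrrc32 (-1.37), which holds latent TGF-beta on the cell surface and passed only in P0-NPCs. Of the 14 that passed in both groups, 9 were higher and 3 lower. The share of fragments from mitochondrial genes was 16.5% to 17.6% in P56-NPCs and at most 7.03% in all other samples. Of the 7 astrocyte markers, 7 were also higher in P56-NPCs, with a median log2 change of 3.32. The part of age, region, border macrophages, other cell types or RNA composition in the higher homeostatic genes was not tested.

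**Figure D4:**
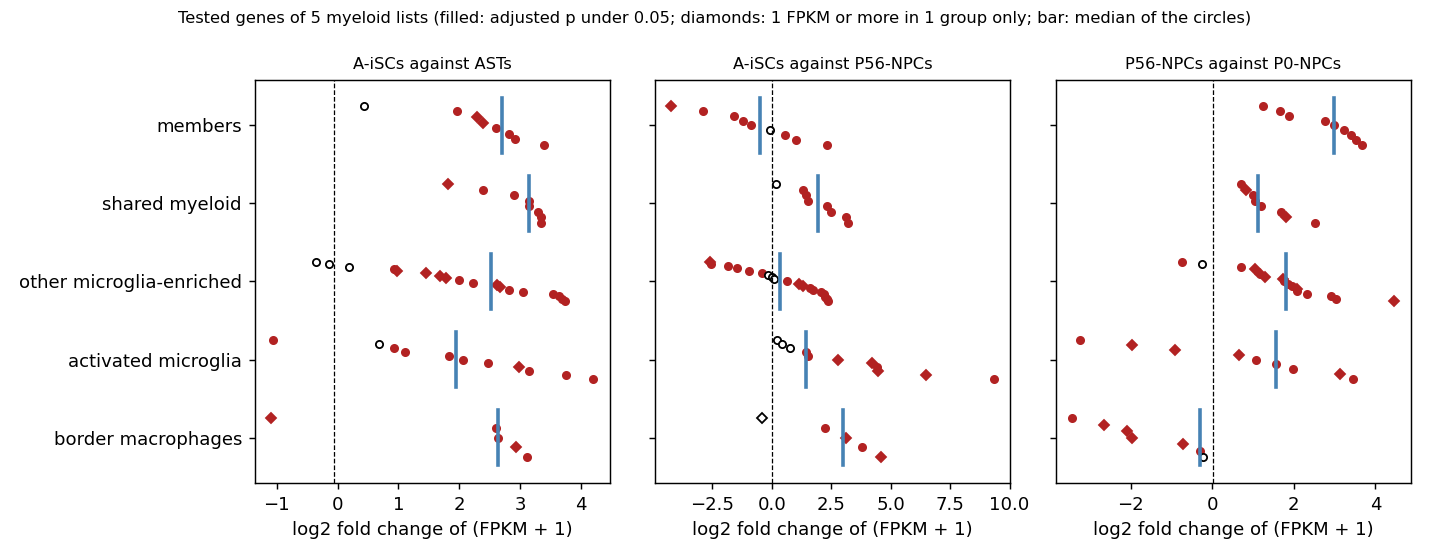
Log2 fold change of FPKM + 1 for the tested genes of 5 myeloid lists in 3 comparisons, with a point per gene, filled where the adjusted p was under 0.05, diamonds for genes that passed the filter in 1 group only, a bar for the median of the other genes of the list, a dashed line for the median of all genes tested, and an axis range of its own in each panel. In A-iSCs against P56-NPCs the median was -0.47 for the homeostatic genes (members) other than Siglech and 1.93 for the shared myeloid genes.

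The remaining comparisons complete the order of the groups. Against ASTs, all 9 genes were called higher in P56-NPCs, where 78.9% of 15146 genes were called and 39.1% were higher. P2ry12, P2ry13 and Siglech were tested only because P56-NPCs passed the filter, so their calls add nothing to the count. The 6 genes that passed in both groups were all called higher. Higher genes were 49.5% of calls, and 37.7% with scaling by library size alone. P2ry12 had the largest fitted change (5.20, SE 0.08, adjusted p = 1.22e-08). Its ratio of means was 89.8, below that of Siglech, whose fitted change is set by the pseudocount. Sall1 had the smallest fitted change (0.50, SE 0.14, adjusted p = 0.0118), and it was not called with scaling by library size alone (0.18, adjusted p = 0.255). In that comparison the shared myeloid genes had a median of 0.69 and 6 of 8 were higher (5 of 7 that passed in both groups), from Spi1 (0.39) to Csf1r (3.17). Of the genes of activated microglia, 7 of 10 were lower (4 of 7 that passed in both groups), down to Spp1 (-6.86), and 1 was higher, Apoe (2.69).

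Between P0-NPCs and ASTs, 3 of the 9 genes were called higher in P0-NPCs and 4 lower, where 79.0% of 15010 genes were called, 38.1% higher and 40.9% lower. Higher genes were 48.2% of calls, 59.4% with scaling by library size alone and 64.5% with upper-quartile scaling. P2ry12 was higher by 1.68 (SE 0.15, adjusted p = 2.03e-05) and Siglech by 1.52 (SE 0.10, adjusted p = 3.13e-06), both tested, like P2ry13, only because P0-NPCs passed the filter. Their calls add nothing to the count, and of the 6 genes that passed in both groups 1 (Gpr34) was higher and 4 were lower. Sall1 (-0.75), Cx3cr1 (-0.63) and Fcrls (-0.59) were lower, with adjusted p of at most 0.00546. With upper-quartile scaling, which moved the median of all genes to 0.33, Cx3cr1 (-0.27, adjusted p = 0.184) and Fcrls (-0.18, adjusted p = 0.170) lost their calls. Gpr34 (0.47, adjusted p = 0.0228) was no longer called without AST sample 2 (0.35) or P0-NPC sample 2 (0.34), nor with no filter on low values (adjusted p = 0.0611) or with all 4 groups in the fit (adjusted p = 0.0533). Olfml3 (-0.28, adjusted p = 0.0197) was no longer called without AST sample 3 (-0.21) or without P0-NPC sample 1 (-0.28) or 2 (-0.26), and upper-quartile scaling turned its direction (0.06). P2ry13 (0.20, adjusted p = 0.431) and Tmem119 (-0.12, adjusted p = 0.285) were not called. The ratio of means of P2ry13, 1.45, turned to 0.913 without P0-NPC sample 2.

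Against P0-NPCs, A-iSCs were higher for 8 of the 9 genes and lower for Siglech, where 65.1% of 15170 genes were called, 31.5% higher and 33.6% lower. Siglech was tested only because P0-NPCs passed the filter, so its call adds nothing to the count. Higher genes were 48.3% of calls, and 37.1% with upper-quartile scaling. Fcrls (3.98, SE 0.15, adjusted p = 7.53e-07) and Cx3cr1 (3.55, SE 0.17, adjusted p = 1.75e-06) differed most. P2ry12 differed least among the higher genes (0.61, SE 0.21, adjusted p = 0.0313), with means of 7.30 ± 1.88 and 4.42 ± 1.05 FPKM. That call was lost with upper-quartile scaling (0.42, adjusted p = 0.106), with no filter (adjusted p = 0.0723), and without A-iSC sample 1 (0.61) or 3 (0.45) or P0-NPC sample 1 (0.46) or 3 (0.63). The ratio of means of P2ry13 was 7.84, and 12.5 without P0-NPC sample 2. Tmem119, P2ry13, Gpr34, Olfml3 and Sall1 differed by 2.09, 2.20, 2.35, 2.88 and 1.19, with adjusted p of at most 0.000429. Relative to the shared myeloid genes, 6 of the 9 ratios were lower in every A-iSC sample than in any P0-NPC sample and 3 overlapped, beside 95.1% of all genes that were lower in this way.

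Across the 12 samples the genes did not all follow each other. On log2(FPKM + 1), Pearson's r was 0.98 for Gpr34 with P2ry13, for Tmem119 with P2ry13 and for Olfml3 with Cx3cr1, and -0.17 for Siglech with Fcrls. These 12 points are 4 groups of 3 samples, so the values describe the order of the groups. The 10 protein-coding genes whose levels were most like the median profile of the 9 genes were Hspa2 (r = 0.991), S1pr1, Hsd17b11, Rin2, Ntrk2, Mlc1, Tmem243, Tmie, Dnajc28 and I830077J02Rik (r = 0.982), out of 13651. The gene most like a single member was Creg2 for P2ry12, Slc25a18 for P2ry13, Gpr37l1 for Tmem119, Gna15 for Cx3cr1, Neurl3 for Fcrls, Wipf3 for Siglech, Cdh22 for Sall1, Daglb for Gpr34 and Cyth4 for Olfml3, with r between 0.975 and 0.999. Wipf3 stood at 0.06 FPKM in ASTs, 0.12 in A-iSCs, 11.5 in P56-NPCs and 1.70 in P0-NPCs.

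P2ry12 and P2ry13 lie within Med12l on the opposite strand, and Gpr34 lies within Cask. The library kit does not mark strand, but P2ry12 shares only 9 of its 2546 exon bases with Med12l, and P2ry13 and Gpr34 share 0 with these genes. Cx3cr1 shares 78 of 4505 exon bases with Gm33858. Mean Med12l was 0.29 FPKM in ASTs, 1.13 in A-iSCs, 0.99 in P56-NPCs and 1.70 in P0-NPCs, an order that differs from that of P2ry12.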

How the data were processed

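RNA of 12 samples, 3 per group, was analysed. Per the labels, the library kit was NEBNext Ultra. The authors deposited 1 table of FPKM for 55862 genes, with gene length and position. The submitters' processing notes name Bowtie 0.12.2 and mm8, whereas 54899 of the 55154 identifiers that GENCODE M21 also holds had its positions, so positions are given on GRCm38. The counter and its strand setting are not given in the sources used here. Within each sample, FPKM times gene length was a whole multiple of 1 step (tolerance 0.05 fragments), so fragments were recovered. The library sizes behind the values were 0.744 to 1.22 times the recovered totals, which is a scaling made by the authors. Floors of 3 fragments cover counting error only.

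Groups were compared 2 at a time in 6 comparisons, several of which share samples. limma 3.58.1 (R 4.3.3; lmFit, eBayes with trend) was run on log2(FPKM + 1), over genes with a mean of at least 1 FPKM in either group, and genes with a Benjamini-Hochberg adjusted p under 0.05 were called. The code was tested on simulated data. Siglech ratios have exact conditional binomial intervals (scipy 1.17.1). Python 3.11.15 with numpy 2.4.6, pandas 2.3.3 and matplotlib 3.10.9 was used for the rest. Alternatives were other scalings, no filter, a pseudocount of 0.1, all 4 groups in the fit, a replicate block, limma-voom on recovered fragments, leaving out each sample and other myeloid denominators. Leaving out samples from the ratios and from the ratios of means was chosen after seeing the data. In no comparison did the deviations of same-numbered samples correlate by over 0.1 in all 3 pairs, so they were not paired.

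The 9 genes, the lists and the tests were chosen with earlier results of these data known. All 9 genes are named, as are, for each list described, the called genes with the largest and the smallest signed change, and the 10 genes most alike the median profile and 1 for each gene. No sample was left out.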

Additional observations from a re-analysis of the deposited data

How the results depend on the processing

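Of 688 fold changes of the 9 genes under alternatives, 658 kept their direction and their side of the threshold, 19 lost the call, 4 gained it and 7 turned direction. With upper-quartile scaling, 4 genes were called for P0-NPCs against ASTs, 3 higher and 1 lower, in place of 7. Leaving out each sample in turn gave 5 to 7 genes there, 8 to 9 for A-iSCs against P0-NPCs, 7 for A-iSCs against ASTs, 8 for A-iSCs against P56-NPCs and 9 for both remaining comparisons. Directions turned for Tmem119 in P0-NPCs against ASTs (0.10 with library size alone, 0.21 with upper-quartile scaling), for Olfml3 there (0.061 with upper-quartile scaling), and for Sall1 in A-iSCs against P56-NPCs (0.46 with library size alone, between -0.21 and 0.024 when each sample was left out, turned at 0.013, 0.012 and 0.024 without A-iSC sample 1 or 2 or P56-NPC sample 2). Of these, only Olfml3 had been called. The ratio of means of P2ry13 in P0-NPCs over ASTs, not called, turned from 1.45 to 0.913 without P0-NPC sample 2. Scaling by library size alone moved the median log2 change of all genes most for P56-NPCs against P0-NPCs, to -0.53, and all 9 genes were still called higher there. Divided by Csf1r alone, 5 of 9 genes were lower in every A-iSC sample than in P56-NPCs, in place of 8, and the log2 ratios of Cx3cr1 (0.40) and Olfml3 (0.87) in A-iSCs over P56-NPCs and of Olfml3 in P0-NPCs over P56-NPCs (0.45) turned direction. Of 52 such log2 ratios under other denominators, 30 moved by less than the replicate spread, 3 whose groups had not overlapped turned as given and 19 moved further, among them Fcrls in A-iSCs over P56-NPCs (from 0.28 to 2.18 with Csf1r alone) and in P0-NPCs over P56-NPCs (from 0.096 to -0.083 with the arithmetic mean). Csf1r differs from the other myeloid genes in not being called between A-iSCs and P56-NPCs.

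Same-numbered samples were not treated as pairs, and the labels do not say whether they are. For A-iSCs against ASTs their deviations correlated by -0.41, 0.35 and 0.45. With the replicate number as a block, 51 of 53 fold changes of the 9 genes kept their call. The block gave 8 genes for A-iSCs against ASTs, with Sall1 called (adjusted p = 0.0266), and 6 for P0-NPCs against ASTs, with Gpr34 not called (adjusted p = 0.0505). Depth limits Siglech, with 0 to 5 fragments in each AST and A-iSC sample.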
